A study of Gallus gallus with 16 samples.

Results

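This report sets diet E against diet A in the jejunum of male broiler chickens sampled on day 21. All 20804 of 20804 probe sets of the array entered the comparison, on 8 of the 16 arrays of the series. Diet E and diet A had 4 birds each, and diets F and H, with 4 birds each, were used to estimate the spread between birds and for 2 direct comparisons. All birds were male, every array held whole jejunum of 1 bird, and the series title names 2 feed additives for growing broilers, saponins and a blend of essential oils (oregano, thyme, rosemary and star anise). Which of these, if any, the letters A, E, F and H stand for is not given in the sources used here; so the diets are called by their letters and no diet is called a control. Nor do the labels give strain, basal feed or pen.

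The jejunum is the stretch of small intestine where most nutrients are absorbed. Its lining is renewed all the time: stem and progenitor cells in the crypts divide, and their daughters move up the villus, stop dividing and become absorptive enterocytes, mucus-making goblet cells or hormone-making enteroendocrine cells. Dividing cells make ribosomes, purines and DNA at a high rate, whereas mature enterocytes carry peptidases, disaccharidases and transporters on their brush border. Array values are given here on the log2 scale, where a difference of 1 is a doubling of signal if the base of the logarithm is 2, as was assumed. Levels of different probe sets cannot be set against each other.

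The arrays had medians between 5.94 and 6.10 over the 16 arrays and lower quartiles between 4.45 and 4.61. Both highest values belonged to bird 2 of diet E, which also had the lowest upper quartile of the 16 (7.56). The mean correlation over probe sets was 0.972 among diet E birds, 0.978 among diet A birds and 0.975 between them. Markers of absorptive enterocytes fitted the labelled tissue: mean values of the 9 measured of 10 ran from 8.13 to 13.70 on diet E and from 7.99 to 13.59 on diet A, with VIL1 not named on the array. The bile acid transporter of the ileum, SLC10A2, averaged 3.33 on diet E and 3.48 on diet A, below the lower quartile of every array. FABP6, the other ileum marker, averaged 6.19 on diet E and 6.47 on diet A, above the median of every array, with birds between 4.70 and 7.70. None of the 3 pancreas markers was measured. Of the 2 liver markers, ALB averaged 4.74 on diet E and 3.78 on diet A, with birds between 3.25 and 6.60. FGB averaged 4.70 on diet E and 4.85 on diet A, with birds between 3.55 and 5.80. Bird 2 of diet E stood apart from the others: it had the lowest mean correlation with its own diet (0.968) and the lowest estimated array weight (0.54, against 0.60 to 1.53 for the other 15 birds). The main lists are given with and without this bird where it moved their median by over 1.5 times. The bird was singled out after its values had been seen, so counts without it are not results of the whole comparison. The sample titles carry numbers: birds 1 and 2 of each diet have numbers up to 25, and birds 3 and 4 have numbers above 25.

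No probe set differed between diet E and diet A at an adjusted p under 0.05, which is 0% of 20804 (limma's moderated test, 1 mean per diet, Benjamini-Hochberg adjustment). An unadjusted p under 0.05 was found for 1605 probe sets, or 7.71% of all tested. Of these, 987 (4.74%) were higher and 618 (2.97%) lower in diet E. That split turned when each array was centred on its median, with 753 higher and 912 lower, and it narrowed to 748 higher and 632 lower after quantile normalization. Counts of higher against lower over the whole array therefore have no settled direction. The birds of the diets did not overlap for 803 probe sets (3.86%). The 4 diet E birds all lay above the 4 diet A birds for 519 probe sets (2.49%) and all below them for 284 (1.37%), again turned by median centring to 395 and 462. Over the 11528 genes with 1 probe set each, the median difference was 0.005, with 5889 genes (51.1%) higher and 5639 (48.9%) lower in diet E.

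The smallest adjusted p, 0.284, belonged to probe set 15383957, for which no gene name was given. It read 8.20, 7.78, 7.70 and 8.03 in the diet E birds, against 7.03, 7.11, 6.97 and 7.13 in the diet A birds, a difference of 0.87 ± 0.14 (SE). The groups did not overlap. Since no gene passed the test, every difference below is a measured value that did not pass the adjusted test, and the names of groups describe counts, not calls.

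**Figure D1:**
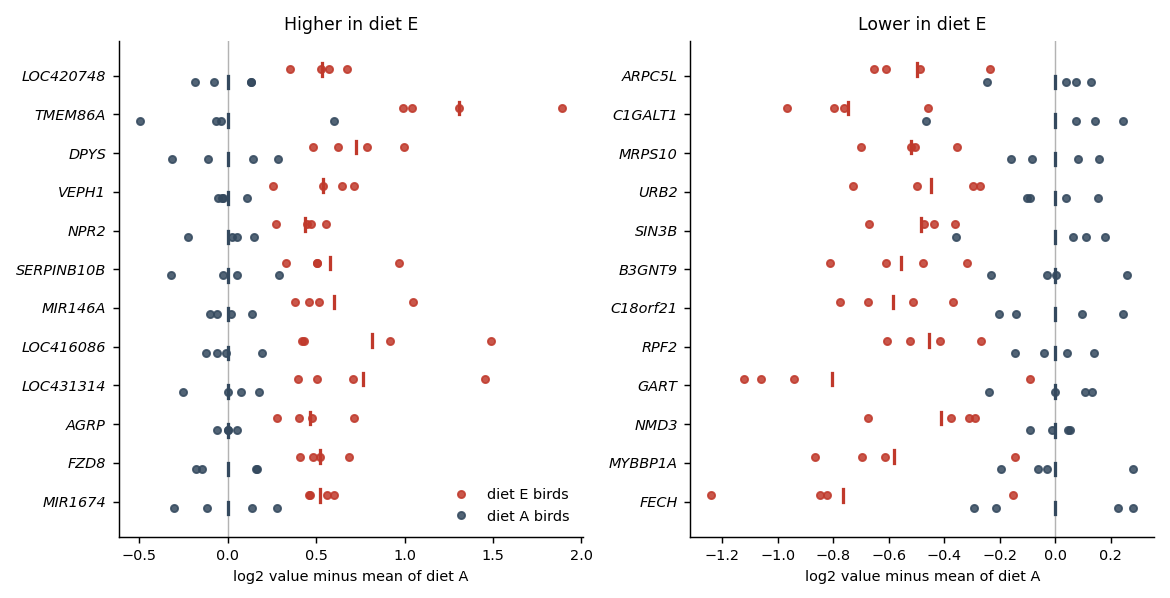
The 12 genes with the smallest p in each direction, plotted as the log2 value of each bird minus the mean of diet A (horizontal axis), with diet E birds above diet A birds in each row and short vertical lines for the means. The 4 diet E birds lie above all diet A birds for each of the 12 higher genes, with adjusted p of 0.364 or 0.613; single diet E and diet A birds overlap for ARPC5L, C1GALT1, GART, MYBBP1A and FECH among the lower genes.

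Genes for building ribosomes were lower in diet E as a group. Ribosome biogenesis takes place mostly in the nucleolus, where the long precursor RNA is transcribed, cut, modified and packed with ribosomal proteins before the subunits are exported. Of 93 measured genes of this group, 88 had a lower mean in diet E and 5 a higher one, with a median difference of -0.21, beside a median of 0.005 over all 11528 genes. Their mean level was 7.11, 7.27, 7.10 and 7.04 in the diet E birds, against 7.40, 7.40, 7.32 and 7.34 in the diet A birds, so that every diet E bird lay below every diet A bird. The list was put together after values of these genes had been seen, and its level has no test of its own. An unadjusted p under 0.05 was found for 23 of the 93, all lower, where 2.87% of all genes were lower at that p. By role, 33 of 36 genes of large subunit assembly and export and 55 of 57 genes of precursor RNA transcription and processing had lower means. The 4 diet E birds lay below the 4 diet A birds for 16 of them, beside 1.52% of all genes, and for 0 of them above, beside 2.16%.

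Among the factors of the large subunit, RPF2, which helps to bring that subunit's smallest ribosomal RNA into the assembling particle, read 7.49, 7.75, 7.60 and 7.40 on diet E and 7.97, 7.87, 8.15 and 8.06 on diet A. The difference was -0.45 ± 0.12 (SE, adjusted p = 0.613), and the groups did not overlap. NMD3, the adaptor that carries the large subunit out of the nucleus, was lower by a difference of -0.41 ± 0.12, with 6.81 ± 0.18 on diet E and 7.22 ± 0.07 on diet A (SD, n = 4 each). URB2, a nucleolar protein of large subunit assembly, read 6.69, 6.67, 6.24 and 6.47 on diet E and 7.01, 7.12, 6.88 and 6.87 on diet A. In the other role, MYBBP1A, a nucleolar regulator of ribosomal RNA transcription, averaged 6.12 ± 0.31 on diet E and 6.70 ± 0.20 on diet A, and 1 pair of birds overlapped.

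Of precursor RNA transcription and processing, UTP6, a protein of the particle that folds and cuts the precursor, read 6.87, 7.09, 6.87 and 6.87 on diet E and 7.45, 7.33, 7.26 and 7.21 on diet A, a difference of -0.39 ± 0.11 (adjusted p = 0.613). In the same role WDR36 (-0.42), UTP15 (-0.34), MPHOSPH10 (-0.44), RCL1 (-0.34), BMS1 (-0.37), UTP20 (-0.33), LTV1 (-0.20), WDR75 (-0.23) and BYSL (-0.17) showed no overlap between the groups, nor did the large subunit GTPases GTPBP4 (-0.27) and GNL2 (-0.17). NOLC1, a chaperone of the small nucleolar RNA particles, was at -0.28 with no overlap. NCL, the abundant nucleolar protein nucleolin, read 9.90, 10.46, 9.76 and 9.84 on diet E and 10.36, 10.34, 10.36 and 10.17 on diet A, so that bird 2 of diet E lay above all diet A birds and the other 3 below. The median of the list was between -0.20 and -0.26 when any 1 bird was left out, and -0.26 without bird 2 of diet E.

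MYC, a transcription factor known to drive ribosome biogenesis genes, read 7.97, 8.20, 7.91 and 7.85 in diet E birds and 8.52, 8.37, 8.23 and 8.56 in diet A birds. The difference was -0.44 ± 0.15 (adjusted p = 0.613), with no overlap. Whether MYC has a part in the lower values of the ribosome genes was not tested.

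**Figure D2:**
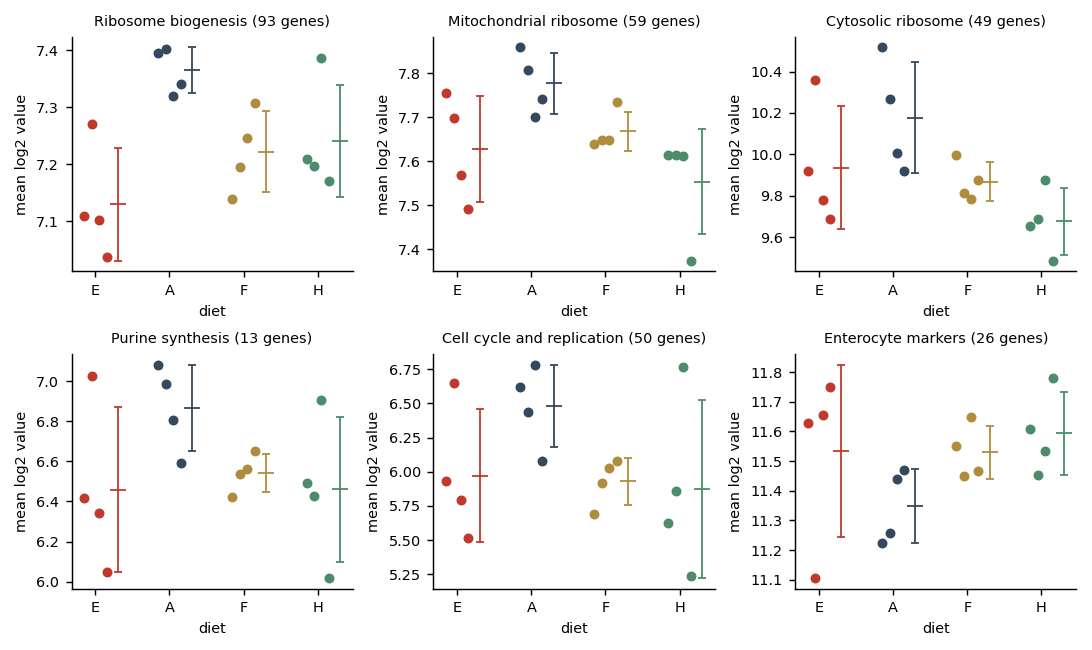
Mean log2 value over the genes of 6 lists (vertical axes, each with its own range and not starting at 0), with 1 point per bird and a mean with SD bar for diets E, A, F and H. Every diet E bird lies below every diet A bird for ribosome biogenesis; bird 2 of diet E stands apart from the other 3 diet E birds for cell cycle (6.65) and enterocyte markers (11.11).

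The ribosomes' own proteins showed smaller or more scattered differences. All 49 cytosolic ribosomal protein genes had a lower mean in diet E, with a median of -0.22, but their mean level was 9.92, 10.36, 9.78 and 9.69 on diet E and 10.52, 10.27, 10.01 and 9.92 on diet A, so the groups overlapped. No gene of the list had its birds apart. An unadjusted p under 0.05 was found for 4 of the 49, beside 2.87% of all genes lower at that p. These were RPL10A (-0.55), RPL39L (-0.35), RPL24 (-0.36) and RPL6 (-0.40). Without bird 2 of diet E the count became 31 of 49, beside 5.81% of all genes lower at that p in the same fit, with a median of -0.37, and without bird 1 of diet A the median was -0.11. Ribosomal protein genes have many near-identical copies, and the array may not tell these apart.

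Of 59 mitochondrial ribosomal protein genes, 54 were lower and 5 higher in diet E, with a median of -0.14. An unadjusted p under 0.05 was found for 8 that were lower and 1 that was higher, beside 2.87% and 3.89% of all genes. Without bird 4 of diet E the median was -0.09. MRPS10, a protein of the small mitochondrial subunit, read 6.65, 6.49, 6.30 and 6.48 on diet E and 7.09, 6.92, 6.84 and 7.16 on diet A (difference -0.52 ± 0.13, adjusted p = 0.613). The birds were also apart for MRPS33 (-0.40), MRPS7 (-0.27), MRPS31 (-0.37), MRPL48 (-0.33) and MRPS9 (-0.30), all lower in diet E, as they were for 1.52% of all genes. MRPS26 went the other way, with 7.97 ± 0.27 on diet E and 7.46 ± 0.40 on diet A. Nuclear genes of oxidative phosphorylation, the respiratory chain of the mitochondria, were lower for 46 of 51, with a median of -0.13, and 2 of them, NDUFC2 (-0.42) and COX8A (-0.33), had an unadjusted p under 0.05, a share near the 2.87% of all genes. Of 40 translation factors 32 were lower (median -0.09), and the initiation factor EIF3B was the only 1 at that p, with 9.54 ± 0.22 on diet E and 9.96 ± 0.20 on diet A. A share of 1 in 40 is also near the 2.87% of all genes.

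Purine synthesis supplies the building blocks of RNA and DNA, and 12 of its 13 measured genes were lower in diet E, with a median of -0.51. This list, too, was put together after values had been seen, and all lists were chosen with earlier results of these data known. GART, an enzyme of several steps of the pathway, read 5.27, 6.12, 5.16 and 5.09 on diet E and 6.35, 6.32, 6.21 and 5.98 on diet A. Bird 2 of diet E lay among the diet A birds and the other 3 lay well below, and the difference was -0.80 ± 0.22 (adjusted p = 0.613). ADSL, a lyase of the same pathway, read 7.67, 7.49, 7.39 and 7.36 on diet E and 8.31, 7.85, 8.07 and 7.82 on diet A, with no overlap (-0.54 ± 0.15). The salvage enzyme HPRT1 (-0.50) and the folate enzyme MTHFD1 (-0.64) also had an unadjusted p under 0.05, and PRPS2 was the single member with a higher mean (0.35). Without bird 2 of diet E, 11 of the 13 were lower at that p, beside 5.81% of all genes in that fit, and without bird 4 of diet E the median was -0.34.

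Cell cycle and DNA replication genes had the lowest median of all 47 lists. A lower mean in diet E was found for 48 of 50, with a median of -0.59. Of these, 6 had an unadjusted p under 0.05, beside 2.87% of all genes lower at that p. CCNE2, the cyclin of entry into DNA synthesis, was the only 1 with its birds apart, beside 1.52% of all genes. CCNE2 read 4.62, 4.36, 4.17 and 4.28 on diet E and 5.35, 4.62, 5.50 and 4.79 on diet A. The replicative helicase subunits MCM4 (-0.84) and MCM5 (-0.73) and the kinetochore gene NDC80 (-0.81) came next. The mean level of the list was 5.93, 6.65, 5.79 and 5.52 on diet E and 6.62, 6.44, 6.78 and 6.08 on diet A: 3 diet E birds lay below all diet A birds, and bird 2 of diet E lay among them. Without that bird, 32 of 50 were lower at an unadjusted p under 0.05, beside 5.81% of all genes in that fit. In 25 the birds were apart (5.31% of all genes were apart and lower in that comparison), and the median was -0.81. Since that bird had the highest level on diet E, lower values without it follow in part from leaving it out. Without bird 4 of diet E the median was -0.36. CENPN, a centromere protein outside the list, read 4.87, 5.22, 5.55 and 5.31 on diet E and 6.01, 5.94, 6.33 and 5.68 on diet A, with no overlap. In whole tissue, fewer dividing cells and less RNA per cell cannot be told apart.

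Absorptive enterocyte markers ran the other way, with 18 of 26 higher and 8 lower in diet E and a median of 0.15. The 3 with an unadjusted p under 0.05 were all higher, as were 3.89% of all genes at that p: SLC15A1, the peptide transporter of the brush border, and MEP1A and MEP1B, the subunits of the brush border protease meprin. SLC15A1 read 11.74, 11.38, 11.47 and 11.30 on diet E and 10.33, 10.79, 11.21 and 11.39 on diet A, with overlap. MEP1A read 11.86, 10.26, 12.02 and 12.62 on diet E and 10.998, 10.321, 10.930 and 10.486 on diet A (difference 1.01 ± 0.40, adjusted p = 0.613). Bird 2 of diet E was the lowest of all 8 and the other 3 were the highest. The enterocyte list as a whole showed the same order, with mean levels of 11.63, 11.11, 11.66 and 11.75 on diet E and 11.22, 11.26, 11.44 and 11.47 on diet A. Without bird 2 of diet E, 23 of the 26 markers were higher, with a median of 0.24, and 8 had an unadjusted p under 0.05, where 4.39% of all genes were higher at that p. In 5 of them the birds were apart, beside 4.57% of all genes. Without bird 1 of diet A the median of the list was 0.09.

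ACE, which on the brush border removes dipeptides from the ends of peptides, was the single gene called in any of the alternative fits. It read 12.29, 10.95, 11.85 and 12.01 on diet E and 11.10, 11.19, 11.13 and 11.18 on diet A. The diet A birds lay within 0.1 of each other (SD 0.04), 3 diet E birds were clearly above them and bird 2 was below. Over all birds the difference was 0.63 ± 0.20 with an adjusted p of 0.613, and without bird 2 of diet E it was 0.90 with an adjusted p of 0.0186. That fit called 1 gene of 11528 (0.00867%). Since ACE became significant only after the bird with the lowest value had been left out, it is not a call of the whole comparison. In the wider list of brush border and luminal peptidases, 11 of 17 were higher and 6 lower (median 0.06). That median was 0.25 without bird 2 of diet E and -0.08 without bird 4 of diet E. CPM, a carboxypeptidase on the cell surface, was lower with no overlap, at 9.44 ± 0.17 on diet E and 9.75 ± 0.08 on diet A.

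**Figure D3:**
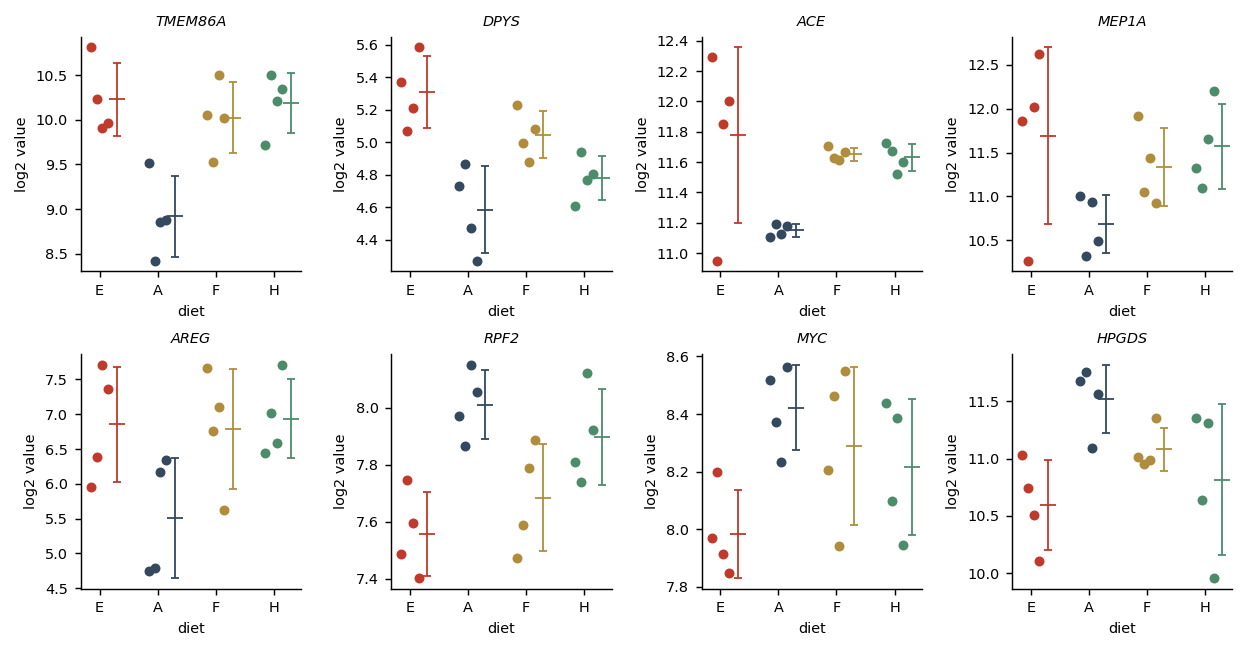
Log2 value (vertical axes, each with its own range and not starting at 0) of 8 genes in each bird of diets E, A, F and H, with the mean and SD beside the points. For ACE and MEP1A 3 diet E birds lie above the diet A birds and bird 2 lies at or below them; for TMEM86A, DPYS, RPF2, MYC and HPGDS the diet E and diet A birds do not overlap.

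Lists for the uptake of other nutrients had medians between 0.08 and 0.19, which moved with single birds. Without bird 2 of diet E the sugar list was at 0.21 and the lipid list at 0.18. Without bird 4 of diet E the mineral list, described below, was at 0.03 and the amino acid list at -0.004. In the lipid list, SCARB1, a receptor for lipoproteins, carotenoids and vitamin E, averaged 11.38 ± 0.51 on diet E and 10.58 ± 0.62 on diet A, and the fatty acid binding protein FABP5 averaged 8.75 ± 0.26 on diet E and 9.21 ± 0.23 on diet A; in the list 15 of 23 were higher (median 0.08). In the sugar list, 7 of 12 were higher (median 0.09) and G6PC, the enzyme that releases glucose, was the only 1 with an unadjusted p under 0.05 (0.27). At that p 3.89% of all genes were higher in diet E. Amino acid and peptide transporters were higher for 15 of 22 (median 0.10). The mineral list holds carriers of calcium, phosphate, zinc and iron, and vitamin D genes. Of its 15 genes 12 were higher (median 0.19), and 0 had an unadjusted p under 0.05. CPT1A, the gate of fatty acid oxidation in mitochondria, read 11.13, 11.06, 10.77 and 10.75 on diet E and 11.29, 11.30, 11.19 and 11.36 on diet A (-0.36 ± 0.15, no overlap). The other genes of fatty acid oxidation were evenly spread, with 11 of 21 in all higher and 10 lower (median 0.02, and 0.12 without bird 2 of diet E).

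The largest difference among the genes with the smallest p was that of TMEM86A. Its enzyme, lysoplasmalogenase, breaks down lysoplasmalogens, the ether lipids left after a fatty acid has been removed from plasmalogens. TMEM86A read 10.81, 10.23, 9.91 and 9.96 on diet E and 9.52, 8.42, 8.86 and 8.88 on diet A, a difference of 1.31 ± 0.26, or 2.48-fold (adjusted p = 0.364). The groups did not overlap, and the difference was 1.55 among birds with title numbers up to 25 and 1.07 among those above. FAR1, which makes the fatty alcohols for ether lipids, was lower with no overlap, at 6.18 ± 0.17 on diet E and 6.79 ± 0.32 on diet A (-0.61 ± 0.23, adjusted p = 0.613). Plasmalogen genes as a list were mixed, with 7 of 18 higher and 11 lower (median -0.11). AGPS (-0.32) and GNPAT (-0.14), the first enzymes of ether lipid synthesis in the peroxisome, had lower means, and PEX7, the import receptor of AGPS, was lower with no overlap (-0.17). PEX5, the import receptor of GNPAT, had a difference of -0.005.

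DPYS, the second enzyme of pyrimidine breakdown, read 5.37, 5.07, 5.21 and 5.58 on diet E and 4.73, 4.87, 4.47 and 4.27 on diet A (0.72 ± 0.15, adjusted p = 0.364). The groups did not overlap. AGXT2, which in mammals clears a product of that pathway, was higher by 0.47, whereas the other breakdown enzymes DPYD (-0.16) and UPB1 (-0.08) had slightly lower means. In the whole pyrimidine list 6 of 17 were higher and 11 lower, and DUT, an enzyme of thymidylate supply, averaged 5.63 ± 0.90 on diet E and 6.36 ± 0.37 on diet A.

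Several of the other higher genes with the smallest p were dim. LOC420748, which has no described role in the tables used, read 3.42, 3.52, 3.20 and 3.38 on diet E and 2.98, 2.98, 2.77 and 2.66 on diet A (0.53 ± 0.10, adjusted p = 0.364), near the bottom of the array's range. SERPINB10B, a serpin of chicken granulocytes (0.58), the precursors MIR146A (0.60) and MIR1674 (0.52) and LOC431314 (0.77) also averaged below the lower quartile of every array on diet A, and a whole-transcript array does not tell a miRNA precursor from the mature miRNA. VEPH1 (0.54), LOC416086 (0.82), AGRP, an antagonist of melanocortin receptors (0.47), FZD8, a Wnt receptor (0.52), and NPR2, a natriuretic peptide receptor (0.44), averaged above that quartile on diet E. On diet A these genes were lower by the differences in brackets, and so nearer that quartile or below it. All 12 of the higher genes showed no overlap between the groups, beside 2.16% of all genes. They were picked for a small p in these same birds, so the missing overlap adds no support.

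Among the higher genes chosen for the largest difference without overlap, SAT1 starts the breakdown of polyamines. It read 9.77, 9.48, 10.17 and 10.36 on diet E and 9.04, 8.96, 9.35 and 9.11 on diet A, a difference of 0.83 ± 0.24, or 1.77-fold (adjusted p = 0.613). The other 8 polyamine genes had no unadjusted p under 0.05. RGCC, a regulator of the cell cycle, read 7.32, 7.09, 8.35 and 8.22 on diet E and 6.48, 6.90, 6.55 and 6.90 on diet A (1.04 ± 0.40). IL8L1, a chicken CXC chemokine, read 6.22, 5.84, 6.32 and 5.84 on diet E and 4.41, 5.09, 5.31 and 5.79 on diet A (0.91 ± 0.42, adjusted p = 0.640). CCL20, a chemokine of the gut lining, was also apart (0.49), while inflammatory genes as a list had a median of 0.02, and -0.06 without bird 2 of diet E.

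Among the lower genes, C1GALT1, the enzyme that extends the first sugar of mucin-type O-glycans, read 5.07, 5.38, 5.04 and 4.87 on diet E and 5.91, 5.37, 6.08 and 5.98 on diet A (-0.75 ± 0.19, adjusted p = 0.613). Bird 2 of diet A lay just below bird 2 of diet E, so the groups touched. B3GNT9, a glycosyltransferase, was lower with no overlap (-0.55). ARPC5L, a subunit of the Arp2/3 complex that branches actin filaments, averaged 6.76 ± 0.19 on diet E and 7.25 ± 0.17 on diet A. ACTR2, a further subunit of that complex, was at -0.29 with no overlap. In the whole list of actin and microvillus genes 21 of 39 were higher. The median of that list was 0.01, and 0.06 without bird 2 of diet E. SIN3B, a scaffold of histone deacetylase complexes (-0.49), and C18orf21 (-0.58) had no overlap between the groups.

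FECH, which inserts iron into protoporphyrin to make heme, read 6.53, 7.20, 6.51 and 6.12 on diet E and 7.58, 7.64, 7.14 and 7.06 on diet A (-0.77 ± 0.21, adjusted p = 0.613). FLVCR2, a transporter of the same family as the heme exporter, was higher with no overlap, at 7.55 ± 0.14 on diet E and 6.93 ± 0.37 on diet A. The 13 heme genes together had a median of 0.01, and 0.06 without bird 2 of diet E. HPGDS, which makes prostaglandin D and also conjugates glutathione, read 11.04, 10.74, 10.51 and 10.10 on diet E and 11.68, 11.75, 11.09 and 11.57 on diet A. Its difference of -0.93 ± 0.27, or 0.526-fold, left no overlap (adjusted p = 0.613). GSTA2, a glutathione transferase, averaged 6.58 ± 0.39 on diet E and 7.34 ± 0.56 on diet A, and GCLM, of glutathione synthesis, 7.95 ± 0.17 on diet E and 8.33 ± 0.26 on diet A. The lists of xenobiotic metabolism (15 of 31 higher) and antioxidant genes (14 of 26 higher) had medians of -0.03 and 0.01. Without bird 2 of diet E both medians were 0.03.

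Also lower without overlap were RBM43, an RNA-binding protein (-1.03 ± 0.39, 4.25 ± 0.26 on diet E and 5.28 ± 0.49 on diet A), MECOM, a zinc-finger transcription factor (-0.69 ± 0.20), and ITGB1BP3. The last read 9.85, 9.59, 10.05 and 9.52 on diet E and 10.74, 10.58, 10.57 and 10.11 on diet A (-0.75 ± 0.23). In mammals this symbol was used for a nicotinamide riboside kinase, but the chicken RefSeq table lists NMRK2 as a separate gene, so its role here is uncertain. NADK2, the mitochondrial NAD kinase, was lower with no overlap (-0.60), and NMNAT3, an enzyme of NAD synthesis in mitochondria, was higher (0.57).

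Among goblet cell and mucus genes 21 of 32 were higher (median 0.08), and of the 14 mucins and secreted products 4 had an unadjusted p under 0.05, all higher, beside 3.89% of all genes. MUC1, a membrane mucin, read 5.93, 6.07, 5.78 and 5.73 on diet E and 5.48, 5.49, 5.30 and 5.50 on diet A (0.44 ± 0.14, adjusted p = 0.613, no overlap). CLCA2 (0.50, no overlap), TFF3 (0.45), a peptide of mucosal repair, and FCGBP (0.48), a mucus protein, were the others. MUC2, the main gel-forming mucin, averaged 13.10 on diet E and 12.99 on diet A, a difference of 0.11. Of the 18 genes of glycosylation and regulation in the list, 11 were higher (median 0.04). At an unadjusted p under 0.05, 1 of these was higher and 1 lower, beside 3.89% and 2.87% of all genes. Without bird 2 of diet E the median of the goblet cell list was 0.13. Among enteroendocrine genes 21 of 27 were higher (median 0.11, and 0.06 without bird 2 of diet E). CHGB, a granule protein (0.42), RIMBP2, of vesicle release (0.30), and the hormone CCK (0.36) were higher with no overlap, beside 2.16% of all genes. CHGB and RIMBP2 are dim on this array. An unadjusted p under 0.05 was found for 2 of the 17 genes of granules and regulators, both higher, beside 3.89% of all genes. For the 10 hormones it was found for 0.

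Tight junction and adhesion genes were higher in diet E for 26 of 30, with a median of 0.12, beside 51.1% of all genes; without bird 1 of diet A the median was 0.06. All 17 scaffold and adherens proteins had a higher mean, none with an unadjusted p under 0.05; JUP, or plakoglobin, read 10.93, 10.76, 10.76 and 10.78 on diet E and 10.58, 10.47, 10.45 and 10.72 on diet A, with no overlap. Of the membrane proteins, CLDN1 averaged 5.92 ± 0.12 on diet E and 5.65 ± 0.24 on diet A, and MARVELD3 averaged 7.07 ± 0.15 on diet E and 7.32 ± 0.11 on diet A. Genes of the EGF receptor pathway, which drives growth and repair of the epithelium, were higher for 11 of 14, with a median of 0.10. Their mean level of 7.39, 7.43, 7.50 and 7.43 on diet E lay above that of 7.25, 7.16, 7.22 and 7.36 on diet A in every bird. No gene of the list had its own birds apart. Only 1 had an unadjusted p under 0.05, beside 3.89% of all genes higher at that p. That gene, the ligand AREG, contributed most to the difference in level. It read 5.95, 6.38, 7.71 and 7.37 on diet E and 4.75, 4.79, 6.18 and 6.34 on diet A (1.34 ± 0.50, adjusted p = 0.613). Averaged over the other genes of the list, 1 diet E bird lay just below 1 diet A bird, so the diets overlapped without AREG. AREG was lower in birds with title numbers up to 25 on both diets, and its difference was 1.40 within that range and 1.28 above it.

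Immediate early genes, which respond to growth factors within minutes, were higher for 14 of 19, with a median of 0.22. JUN averaged 8.75 ± 0.27 on diet E and 8.28 ± 0.35 on diet A, and BTG2, an antiproliferative gene, was apart (0.23). MYC, which is also in this list and had its smallest p, went the other way, lower with no overlap (-0.44). The median of this list was 0.23 among birds with title numbers up to 25 and 0.03 among those above. Of 31 genes of the stress response to misfolded protein or amino acid shortage, 22 were lower and 9 higher in diet E. Their median was -0.08, and -0.19 without bird 2 of diet E. Among the higher ones, CHAC1 was at 6.37 ± 0.25 on diet E and 5.91 ± 0.07 on diet A with no overlap. EIF2AK3, also higher, was at 8.43 ± 0.24 on diet E and 8.08 ± 0.22 on diet A.

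Interferon response genes, which defend cells against viruses, depended on which birds were set against each other. A lower mean in diet E was found for 39 of 46, with a median of -0.27, and 0 had an unadjusted p under 0.05. The mean level was 9.12, 9.15, 8.63 and 8.63 on diet E and 8.76, 9.10, 9.38 and 9.29 on diet A. Within title numbers up to 25, where birds 1 and 2 of each diet lie, the median was 0.22, and above 25 it was -0.74. RSAD2, an antiviral enzyme, read 9.63, 9.56, 8.56 and 8.02 on diet E and 8.10, 10.10, 10.87 and 10.48 on diet A. The labels do not say what the title numbers stand for, and each range held only 2 birds per diet. With the lower range of numbers first, proteasome subunits (0.12 and -0.28), MHC genes (0.10 and -0.32), macrophage and heterophil genes (0.14 and -0.33) and, the other way round, fatty acid oxidation (-0.20 and 0.31) also changed sign between the ranges. Ribosome biogenesis (-0.19 and -0.23), purine synthesis (-0.32 and -0.57), cell cycle (-0.23 and -0.89), enterocyte (0.14 and 0.14) and tight junction genes (0.13 and 0.14) kept theirs. Bird 2 of diet E, which stood apart from its diet, is 1 of the 2 diet E birds in the lower range. Its part in the values of that range, and so in the changes of sign, was not tested.

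**Figure D4:**
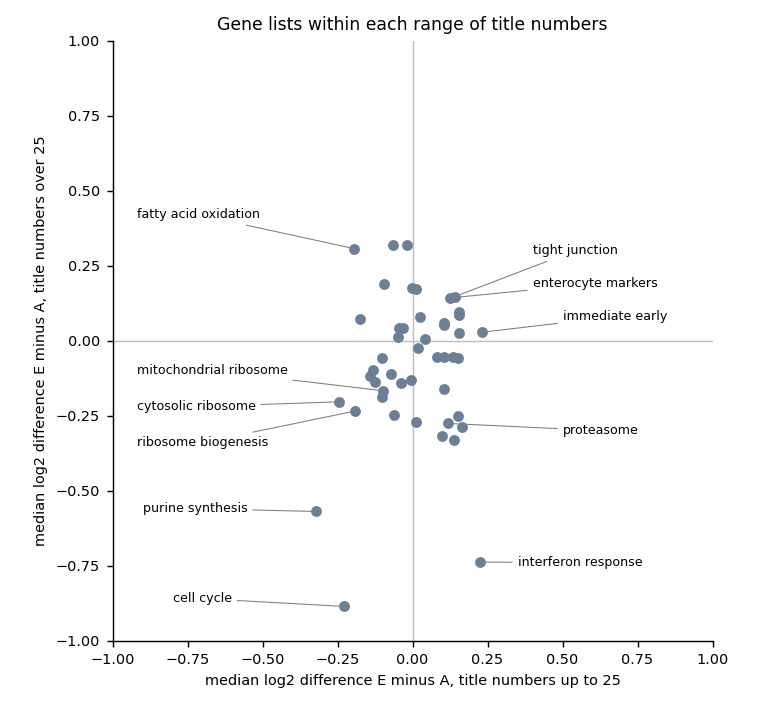
Median log2 difference of diet E minus diet A for each of the 47 gene lists, within birds with title numbers up to 25 (horizontal axis) and over 25 (vertical axis), 2 birds per diet in each. Cell cycle, purine and the ribosome lists lie below 0 on both axes, whereas interferon response lies at 0.22 and -0.74.

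Genes of other cells of the gut wall were spread widely between birds. T and NK cell genes were lower for 21 of 28 (median -0.17), B cell genes for 10 of 15 (-0.12) and macrophage and heterophil genes for 10 of 15 (-0.19), with 0 at an unadjusted p under 0.05 in each list. Without bird 2 of diet E the macrophage and heterophil list was at -0.43, with 12 of 15 lower and 2 at that p. The B cell list was at -0.21 with 1 at that p, where 5.81% of all genes were lower in that fit. The T and NK cell median was -0.04 without bird 3 of diet A and -0.33 without bird 2 of diet A. Collagen and matrix genes were lower for 26 of 38, and their level was 5.94, 6.86, 5.98 and 5.23 on diet E and 6.66, 6.33, 5.96 and 5.64 on diet A, with bird 2 of diet E the highest. Over all birds the median was -0.22 for the 26 collagens and matrix genes and -0.02 for the 12 fibroblast markers of this list. The median of the whole list was -0.43 without bird 2 of diet E and 0.17 without bird 4 of diet E. The matrix protein gene DPT was lower (-0.91), and the matrix genes THBS2 (0.47), TIMP3 (0.44) and ELN (0.38) were higher. In macrophage and heterophil genes bird 2 of diet E was highest too, at 7.77 against 6.76 to 7.21 in the other diet E birds and 7.02 to 7.61 in diet A birds. The part of these cells in the lower enterocyte and higher cell cycle values of that bird was not tested. OLFM4, a gene of crypt cells, ranged from 4.52 to 10.94 on diet E and from 8.93 to 10.65 on diet A, and crypt genes in all were lower for 14 of 21 (median -0.11). Without bird 2 of diet E, 16 of 21 crypt genes were lower (median -0.24). Of these, 5 had an unadjusted p under 0.05, beside 5.81% of all genes lower at that p. OLFM4 then differed by -2.42, against -1.56 with that bird. Without bird 4 of diet E the crypt median was 0.002.

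**Figure D5:**
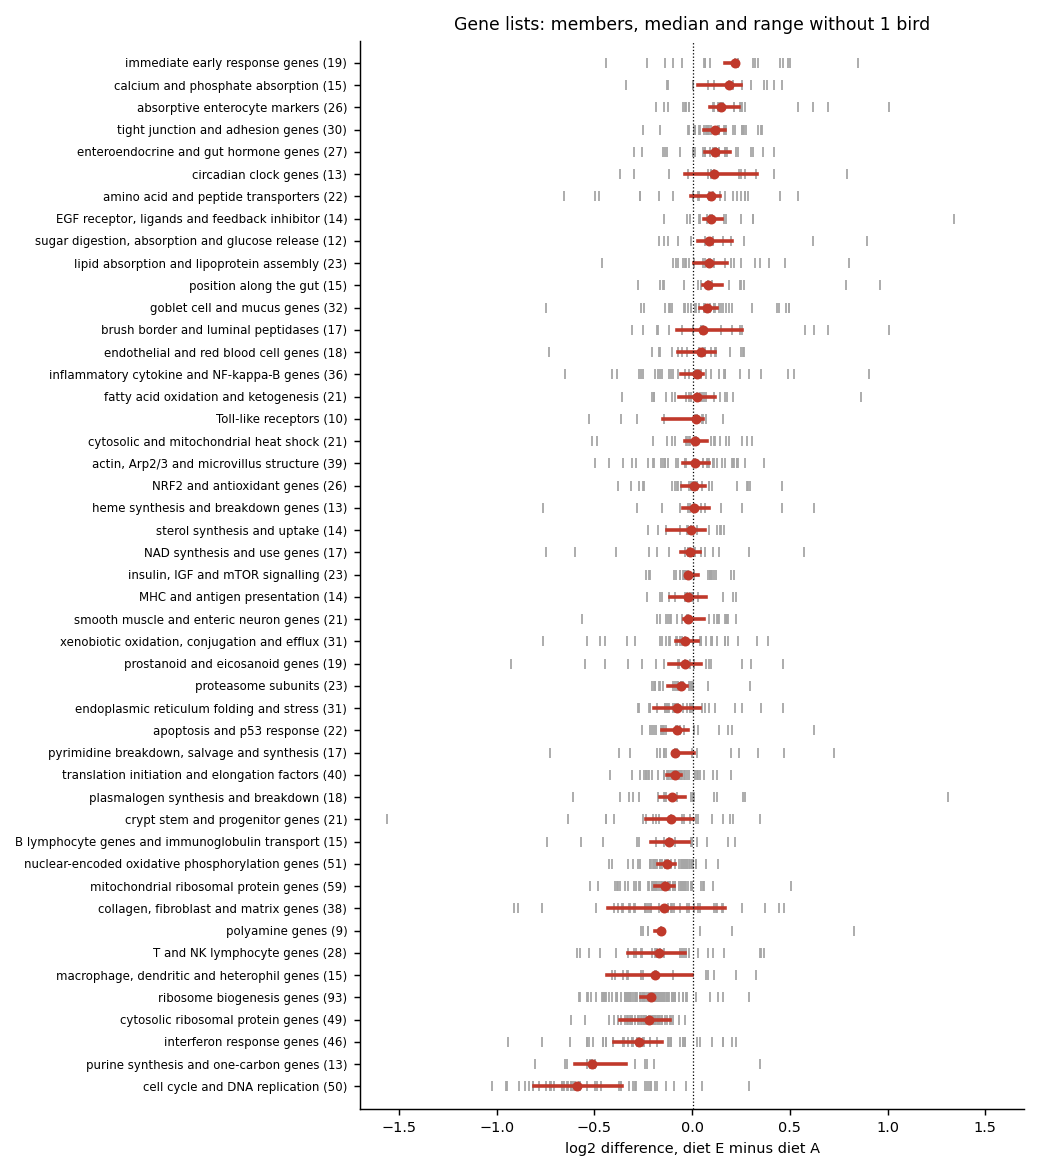
Log2 difference of diet E minus diet A (horizontal axis) for every measured gene of the 47 lists (grey ticks), with the list's median (red dot) and the range of that median when each of the 8 birds is left out in turn (red line); numbers in brackets give the genes measured and the dotted line the median of all genes. Cell cycle, purine, interferon, cytosolic ribosome and ribosome biogenesis genes have the lowest medians, between -0.59 and -0.21, and immediate early genes the highest, 0.22.

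Toll-like receptors, sterol synthesis, heat shock proteins, insulin and mTOR signalling, MHC genes, smooth muscle and enteric neurons, and endothelial and red blood cell genes had medians between -0.02 and 0.05 with 0 genes at an unadjusted p under 0.05. Without bird 2 of diet E, Toll-like receptors were at -0.15 with 9 of 10 lower, MHC genes at -0.11 and endothelial and red blood cell genes at -0.07. Sterol synthesis was then at 0.05, heat shock proteins at -0.03, insulin and mTOR signalling at 0.03 and smooth muscle and enteric neurons at -0.04. Proteasome subunits had 17 of 23 lower (median -0.06), prostanoid genes 11 of 19 (-0.04) and NAD genes 9 of 17 (-0.01). Apoptosis genes had 15 of 22 lower (median -0.08, and -0.02 without bird 2 of diet E) and circadian clock genes 9 of 13 higher (median 0.11), with TEF, a clock output factor, at 0.42; the clock median was 0.33 without bird 2 of diet E and -0.04 without bird 4 of diet E. Without bird 2 of diet E the proteasome median was -0.13, the prostanoid median -0.12 and the NAD median 0.04. Of genes that mark other stretches of the gut or neighbouring organs, 10 of 15 were higher, and TTR (0.79, 4.71 ± 0.77 on diet E and 3.92 ± 0.37 on diet A) was the only 1 with an unadjusted p under 0.05. At that p 3.89% of all genes were higher in diet E.

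Set directly against the other diets, diet E again gave no call. No probe set differed between diet E and diet F at an adjusted p under 0.05 (0%, smallest 0.147, with 614 or 2.95% at an unadjusted p under 0.05) or between diet E and diet H (0%, smallest 0.255, with 1981 or 9.52%). The 3 comparisons share the diet E birds. TMEM86A averaged 10.02 on diet F and 10.19 on diet H, close to its 10.23 on diet E, and the difference was 0.20 to diet F and 0.04 to diet H. MRPS10 was likewise near the other diets, with 6.48 on diet E, 6.38 on diet F and 6.52 on diet H. For the ribosome biogenesis list the level was 7.13 ± 0.10 on diet E, against 7.22 ± 0.07 on diet F, 7.24 ± 0.10 on diet H and 7.36 ± 0.04 on diet A, with medians of -0.09 against diet F and -0.11 against diet H. Cell cycle genes stood at 5.97 ± 0.48 on diet E, against 5.93 ± 0.17 on diet F and 5.87 ± 0.65 on diet H, and enterocyte markers at 11.53 ± 0.29 on diet E, against 11.53 ± 0.09 on diet F and 11.59 ± 0.14 on diet H. Collagen and matrix genes were higher in diet E than in diet F for 37 of 38 (median 0.38) and than in diet H for 34 of 38 (median 0.46). Against diet A most of them were lower in diet E. The medians there were -0.22 for collagens and matrix genes and -0.02 for fibroblast markers. Over all probe sets the median difference was 0.003 to diet F and 0.030 to diet H. Bird 2 of diet E was the highest of its diet, and its part in these counts was not tested. ACE averaged 11.78 on diet E, 11.65 on diet F, 11.63 on diet H and 11.15 on diet A. LOC420748 was the reverse case, with 3.38 on diet E, against 2.98 on diet F, 2.86 on diet H and 2.85 on diet A (differences of 0.40 and 0.52 to diets F and H, neither adjusted p below 0.479).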

How the data were processed

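RNA of whole jejunum from 16 male broilers, 4 per diet, was isolated, reverse transcribed, labelled with biotin and hybridised to 1-colour Affymetrix arrays, per the labels' protocols; GCOS 1.1.1 is named per the submitters' processing notes. The deposited values, 0.785 to 14.49, were read as log2 intensities. The sources used here do not give their base, summarization or normalization, so folds rest on base 2. Genes came from the platform annotation: 12300 of 20804 probe sets had 1 symbol, 256 several and 8248 (39.6%) none, and 1644 share all values with another.

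limma 3.58.1 (R 4.3.3) fitted 1 mean per diet over all 16 arrays, without a filter, with Benjamini-Hochberg adjustment over all 20804 probe sets and a threshold of 0.05. Gene counts use, of each gene's probe sets, the one with the highest mean (11528 genes), with p-values still adjusted over 20804. Each array was a separate bird, and the number of birds limits the precision. Array weights were estimated with limma. The fit was tested on simulated data. Named genes were the 12 with the smallest p in each direction, the 6 with the largest difference and birds apart, up to 4 members of each list with the smallest p, and members with birds apart; other names were chosen after their values were seen. Members and lists, 41 and 6 added later, were chosen with earlier results of these data known. Alternatives were other scalings, a filter leaving out the lowest 25%, blocks by title number and leaving out each bird. Figures were drawn with matplotlib 3.10.9.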

Additional observations from a re-analysis of the deposited data

Results flagged for a closer look

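In 160 groups of 4 birds (each named gene and each list level, in diet E and in diet A), the most extreme bird was set against the nearest of the others. The gap exceeded Dixon's critical value in 8 groups, and chance alone gives about 1 in 20, or 8 of 160. Of these, 5 concern bird 2 of diet E: its mean level was 8.8914 for sugar digestion and absorption genes and 9.1995 for actin and microvillus genes, both far below the other 3 birds of its diet. It was far above them for smooth muscle and enteric neuron genes (5.7165) and for heat shock genes (7.7942), and far below for NAD genes (6.7536). Bird 1 of diet E was far above the others in sterol synthesis genes (10.0549), and bird 3 of diet E far below them in MHC genes (9.0523). In diet A, bird 3 had a VEPH1 value of 4.8998, above the other 3 birds of its diet and still below all diet E birds.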

How the results depend on the processing

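No paired analysis was possible because the labels give no replicate numbers shared between the diets; the range of title numbers served as a block instead. The count of probe sets called was 0 in all alternatives except 1, without bird 2 of diet E, where it was 1 (leaving out each bird in turn gave 0 to 1). The smallest adjusted p in the other alternatives was between 0.177 and 0.865. The count with an unadjusted p under 0.05 was 1605 of 20804 in the main fit. It fell to 1037 when neighbouring title numbers were a random block (estimated correlation 0.173, smallest adjusted p 0.865). That is near the share of 0.05 that chance alone gives on average at this threshold. The count was 2382 with title number as a covariate, and 1166 to 2073 without any 1 bird. Probe sets with birds apart numbered 1185 to 1899 without any 1 bird, and 7399 and 9409 within the lower and upper range of title numbers, where 2 birds meet 2 and groups separate more easily. For the 33 genes named by smallest p or by largest difference without overlap, 655 values under alternatives kept their direction and none passed the threshold; ACE, named as a list member, passed it without bird 2 of diet E. Of list medians under all alternatives, 964 moved by less than the spread between birds and 23 by more. With 4 birds per diet and no call, small differences were not detectable at this number of arrays. Large ones were not called either, as none of the 87 probe sets with a difference over 1 in either direction passed. Besides, 39.6% of probe sets have no name, and dim genes such as LOC420748 lie where array signal is least reliable. Whether neighbouring title numbers shared a pen is not given in the sources used here.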
